A study of Bos taurus and Bos indicus with 6 samples.

Results

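The tumour necrosis factor (TNF) superfamily was examined in circulating white blood cells of tick-infested Brahman and Holstein cattle, together with its receptors, the TRAF signalling proteins and the adaptors TRADD and RIPK1. Members were all probe sets that the platform annotation pairs with exactly 1 gene symbol, where that symbol starts with TNFSF, TNFRSF or TRAF followed by a digit, or equals TNF, LTA, LTB, LTBR, CD40, CD70, TRADD or RIPK1. This gave 36 probe sets for 26 genes, of 24016 probe sets tested and 9155 genes named in all. CD70 was not analysed here. Another 2 probe sets carry the symbol TNFSF12 beside a second symbol and were left out by the rule. Positions are not given, because the sources used here name no build, and no probe sequences were used.

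The study compared 3 Holstein-Friesian cattle, a European dairy breed annotated as Bos taurus, with 3 Brahman cattle, a zebu breed annotated as Bos indicus. All 6 animals were females aged 6 months and all were under heavy, repeated infestation with the cattle tick Rhipicephalus microplus, a blood-feeding parasite to which zebu cattle are generally regarded as more resistant. Blood was freed of red cells by lysis, so the RNA came from the whole, unsorted white cell pellet, and each animal's RNA was hybridised to its own array. Animals without ticks were not analysed here, so a breed difference that exists without infestation is part of every value. Each sample is a separate animal on a separate array, and the SD covers both sources of variation.

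TNF superfamily ligands are mostly trimeric proteins, made on the surface of the cell and in several cases shed from it. They bind receptors that either carry a death domain, through which TRADD, RIPK1 and caspases are engaged, or recruit TRAF proteins directly. TRAF proteins pass the signal to the kinases that activate NF-kappa-B and JNK, and in leukocytes the family governs inflammation, lymphocyte costimulation, B cell survival and apoptosis.

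Values are log2 RMA expression values, in which 1 unit is a doubling, and a difference is Brahman minus Holstein throughout. They are relative to each array's own signal, and a value compares animals for 1 probe set, not 1 gene with another. In whole white cells, fewer cells of a type cannot be told apart from less RNA per cell. No probe sequences were used, so a sequence difference between the breeds under a probe cannot be told apart from a difference in RNA. Markers of the expected cells were well measured: MS4A1 of B cells lay between 12.54 and 12.94 on the 6 arrays in its brighter probe set, CD3E of T cells between 10.75 and 11.52, and S100A12 of neutrophils between 12.52 and 13.36. The hybridisation spike-in controls, added in equal amount in the standard protocol, read 9.94 to 10.38 on the Holstein arrays and 9.64 to 9.80 on the Brahman arrays, so a technical level moved with breed.

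The array of Holstein 1 stood apart for this family. It gave the highest of the 6 values in 18 of 36 member probe sets (50%), from 15 genes, whereas it was highest in 21.1% of all probe sets. Among the 33 members with a mean of at least 6 the share was 51.5%, against 25.2% of all single-symbol probe sets at that level. By role, Holstein 1 was highest in 6 of 8 ligand, 5 of 13 receptor, 5 of 8 TRAF and 2 of 2 adaptor probe sets, and in 0 of 5 probe sets of TRAF-interacting proteins. The differences of these 18 probe sets are therefore also given without it.

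**Figure D1:**
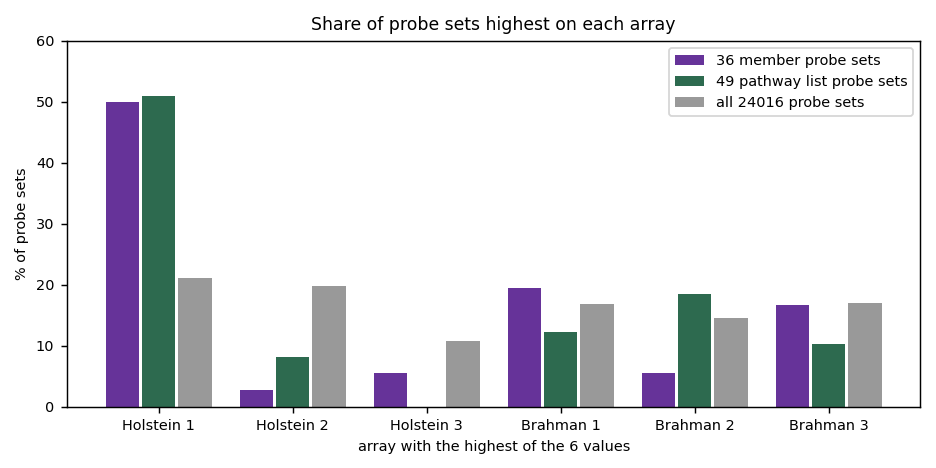
Bars give the percentage of probe sets (vertical axis) whose highest value fell on each of the 6 arrays (horizontal axis), for the 36 members, the 49 probe sets of the pathway list and all 24016 probe sets. Holstein 1 holds 50% of the members and 51% of the pathway list against 21.1% of all probe sets.

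No member passed the test over all probe sets. In limma, 0 of 36 member probe sets had an adjusted p under 0.05, where the background was 0.137% of all probe sets, and the smallest adjusted p of a member was 0.214. At an unadjusted p under 0.05 there were 3 members with the higher mean in Brahman (8.33%, background 7.12%) and 2 with the lower mean (5.56%, background 6.47%). The breeds did not overlap in 4 members with Brahman higher (11.1%, background 11.7%) and in 4 with Brahman lower (11.1%, background 8.37%). These shares lie near the background, but the lower share depends on the settings. It was 13.9% (5 of 36) with arrays centred on a common median, beside a background of 7.67%, and 16.7% (6 of 36) once the spike-in level entered the fit, beside 4.42%. In the other direction, it was 2.78% with a trended robust prior, beside 6.27%, and 2.78% with array weights, beside 6.23%. Without Brahman 2 it was 0%, beside 5.3%. The spike-in levels of the breeds did not overlap, so a fit with this level separates breed from it poorly. The median difference of the members was -0.03, beside 0.02 over all probe sets, and it was 0.06 without Holstein 1, beside 0.03 over all.

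The intervals give the precision of each difference in the main fit only, and do not cover the spike-in level. With that level in the fit, TNFRSF1B (-1.52), TRAF5 (0.94) and the brightest TRAF3IP3 probe set (0.72) fell outside their main intervals. The other named member probe sets refitted this way stayed inside. The 95% interval of the difference, unadjusted for the number of probe sets, lay within 1 log2 unit of 0 in 34 of 36 members and within 0.5 units in 21. It excluded 0 in 5, and the standard error ran from 0.09 to 0.33 with a median of 0.12. The exceptions to the first count were TNFSF13B (-1.17 to -0.01) and TNFRSF1B (-1.04 to 0.50). With 1 probe set per gene, the one with the highest mean, 10 genes had the higher mean in Brahman and 16 in Holstein.

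**Figure D2:**
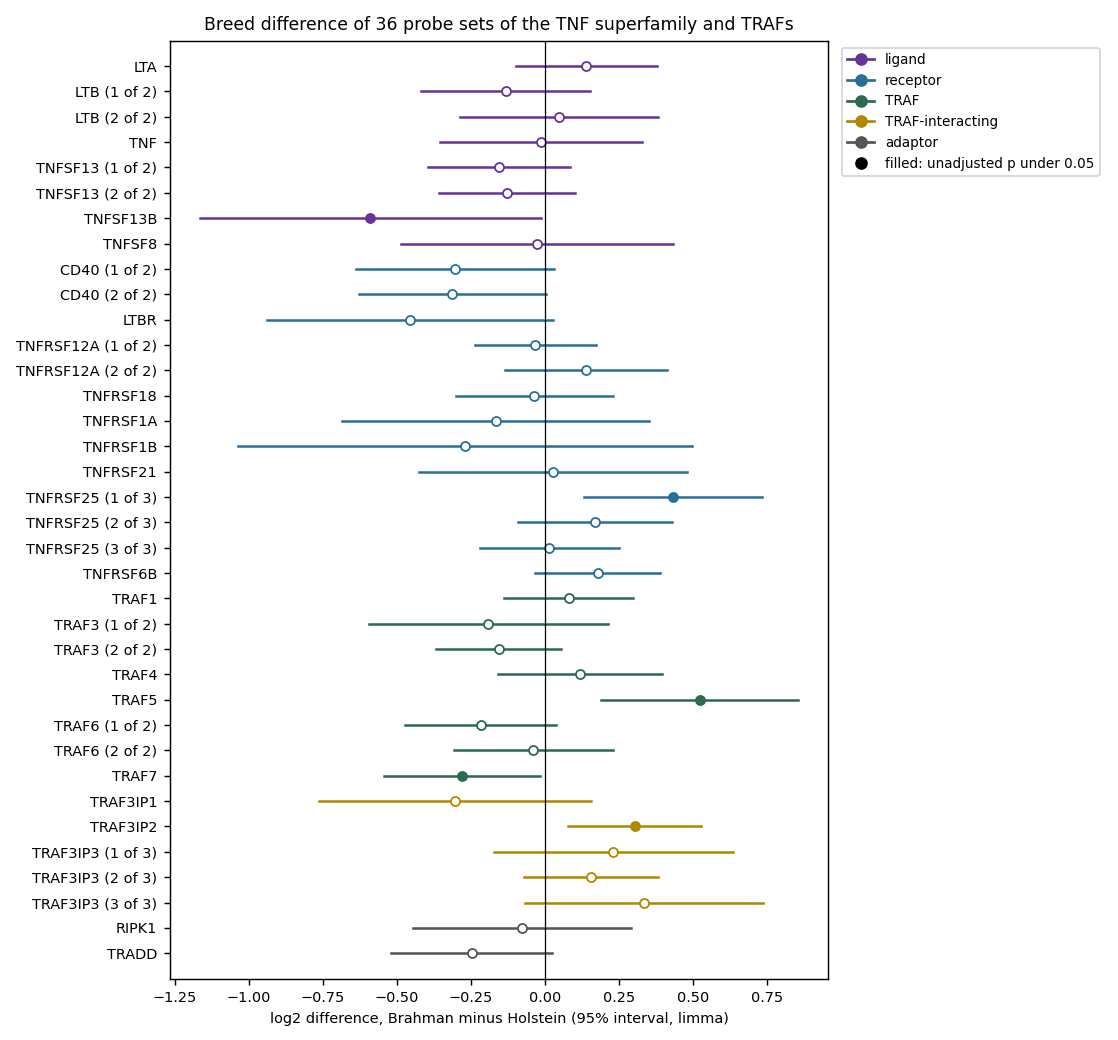
Each point is the log2 difference of a member probe set, Brahman minus Holstein (horizontal axis), with its 95% interval from limma as a line, coloured by role; filled points have an unadjusted p under 0.05. Most intervals cross 0, TRAF5 at 0.52 and TNFSF13B at -0.59 lie at the ends of the range.

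Among the ligands, TNFSF13B had the widest breed difference and TNF itself almost none. TNFSF13B (BAFF) is a survival factor for B cells that myeloid cells secrete. It read 7.64, 7.28 and 6.77 on Holstein 1, 2 and 3 and 7.00, 6.35 and 6.57 on Brahman 1, 2 and 3. The top 2 values are Holstein and the bottom 2 Brahman, but Brahman 1 lies above Holstein 3, so the breeds overlap. The means were 6.64 ± 0.33 in Brahman and 7.23 ± 0.44 in Holstein (SD, n = 3 each), a difference of -0.59 (SE 0.25), or 1.5-fold, with a limma adjusted p of 0.361. It was -0.38 without Holstein 1 and -0.82 without Holstein 3. Monocyte markers, of which 4 of 6 were measured, averaged 8.99 to 9.44 in Holstein and 8.77 to 9.12 in Brahman, and 4 of 7 neutrophil markers averaged 8.46 to 8.84 and 8.22 to 8.50. The monocyte markers did not move together: CD14 differed by -0.94 and -0.67 in its 2 probe sets, while the 3 VCAN probe sets differed by 0.92 to 1.06, each without overlap. Their part in the TNFSF13B values was not tested.

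TNF, the inflammatory cytokine that gives the family its name, read 6.75, 6.71 and 6.30 in Holstein and 6.74, 6.44 and 6.55 in Brahman. The breeds overlapped fully and the difference was -0.01 (95% interval -0.35 to 0.33, limma adjusted p = 0.985), or 0.07 without Holstein 1. Differences smaller than this interval could not be resolved with 6 arrays.

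LTB, which anchors lymphotoxin alpha in the membrane as a heterotrimer, gave a bright and a dimmer probe set. The brighter read 13.03, 12.92 and 12.82 in Holstein and 12.91, 12.57 and 12.90 in Brahman, with Brahman 2 the lowest, and differed by -0.13 (SE 0.12), which became -0.02 without Brahman 2 and -0.08 without Holstein 1. The dimmer differed by 0.05 and was also lowest on Brahman 2, at 7.01, and its difference was 0.21 without that animal. LTA, the secreted partner, averaged 6.46 ± 0.10 in Brahman and 6.32 ± 0.11 in Holstein and overlapped.

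The B cell and plasma cell factor TNFSF13 (APRIL) had 2 probe sets with differences of -0.15 and -0.13, both highest on Holstein 1 and lowest on Brahman 2, and these were -0.10 and -0.07 without Holstein 1. TNFSF8, the ligand of CD30, differed by -0.03, and its spread lay in Holstein, where animals 1, 2 and 3 read 7.21, 6.48 and 7.08. The difference turned to 0.12 without Holstein 1 and was -0.25 without Holstein 2. The limma adjusted p of these ligands other than TNFSF13B ran upward from 0.552.

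Among the receptors, a probe set of TNFRSF25 had the smallest p, followed by CD40 and LTBR. TNFRSF25 (DR3) is a death domain receptor known for costimulating T cells. Its first probe set read 7.90, 7.64 and 8.08 in Holstein and 8.34, 8.21 and 8.38 in Brahman. All Brahman values lie above all Holstein values, with a gap of 0.13. The means were 8.31 ± 0.09 and 7.88 ± 0.22 (SD, n = 3 each), a difference of 0.43 (SE 0.13), or 1.35-fold, with a limma adjusted p of 0.243. The other probe sets of the gene differed by 0.17 and 0.02 and overlapped between the breeds, so the gene's probe sets differ in size, and the smallest had the other sign without Holstein 2 or Brahman 2. The difference ran from 0.32 without Holstein 2 to 0.54 without Holstein 3, and was 0.19 once the spike-in level entered the fit.

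Most T cell markers had the higher mean in Brahman, as TNFRSF25 did. Of 8 listed, 7 were measured, 6 of them had the higher mean in Brahman in their brightest probe set, and the list averaged 9.81 to 9.85 in Holstein and 9.97 to 10.16 in Brahman, without overlap. CD3G differed by -0.04, and a dimmer CD2 probe set went the other way without overlap, at -0.72 (limma adjusted p = 0.0645), against 0.40 in the brightest. Whether T cell content accounts for the TNFRSF25 values was not tested.

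CD40 is the receptor through which T cell help reaches B cells and antigen-presenting cells. One probe set read 10.17, 9.83 and 9.67 in Holstein and 9.58, 9.56 and 9.60 in Brahman. The Brahman animals lie within 0.1 of each other and below every Holstein animal, of which Holstein 1 is the highest. The difference was -0.31 (SE 0.13, limma adjusted p = 0.374), and -0.17 without Holstein 1. The other probe set differed by a similar -0.30 (SE 0.14), but there Holstein 2 was the highest at 9.09 and the breeds overlapped, and the difference was -0.41 without Holstein 1. Thus both CD40 probe sets gave the lower mean in Brahman, with and without that animal, and neither passed.

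B cell markers offer a reference for CD40. MS4A1 differed by -0.14 and -0.21 in its 2 probe sets and CD79A by -0.23. The kinase gene BLK differed by 0.97 (limma adjusted p = 0.106) and CR2 by 0.35 and 0.15 in its 2 probe sets. Thus the 4 measured markers did not move together. Their mean ran from 9.90 to 10.12 in Holstein and from 10.19 to 10.36 in Brahman, without overlap. The part of these markers in the CD40 values was not tested.

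LTBR, the lymphotoxin beta receptor, is carried by myeloid and stromal cells and is generally absent from lymphocytes. It read 7.25, 6.59 and 6.40 in Holstein and 6.33, 6.24 and 6.30 in Brahman. The breeds do not overlap, with a gap of 0.07, but most of the distance comes from Holstein 1. The difference was -0.46 (SE 0.21, 1.37-fold, limma adjusted p = 0.390), and -0.20 without Holstein 1.

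The TNF receptors themselves varied more between Holstein animals than between breeds. TNFRSF1A, the widely expressed death domain receptor, read 10.32, 9.60 and 9.47 in Holstein and 9.43, 9.69 and 9.76 in Brahman. TNFRSF1B, the leukocyte receptor without a death domain, read 8.97, 7.60 and 8.23 in Holstein and 8.04, 8.28 and 7.67 in Brahman. In both, Holstein 1 is the highest of the 6, by 0.78 and 1.05 above the mean of the other two Holstein animals. The breed differences were -0.17 (SE 0.22) and -0.27 (SE 0.33), and they changed sign without Holstein 1, to 0.10 and 0.08. Once the spike-in level entered the fit they were -0.59 and -1.52. The limma adjusted p was 0.792 and 0.769.

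TNFRSF21 (DR6), another death domain receptor, showed the opposite placing of the Holstein animals. It read 10.06, 10.50 and 10.88 in Holstein and 10.45, 10.47 and 10.60 in Brahman, so Holstein 1 was the lowest and Holstein 3 the highest of the 6. The breed means were 10.51 ± 0.08 and 10.48 ± 0.41 (SD, n = 3 each), a difference of 0.03 (limma adjusted p = 0.972) that turned to -0.18 without Holstein 1.

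The remaining receptors differed little. TNFRSF12A (Fn14), the receptor of TNFSF12, differed by 0.14 in its brighter probe set, and by -0.03 in a probe set with a mean of 4.48 in Holstein and 4.44 in Brahman, where the difference was 0.01 without Holstein 1. TNFRSF18 (GITR), a costimulatory receptor of regulatory and activated T cells, differed by -0.03. TNFRSF6B, a secreted decoy receptor, did not overlap between breeds, at 4.29 ± 0.08 in Holstein and 4.47 ± 0.06 in Brahman (SD, n = 3 each). That probe set and the dimmer TNFRSF12A probe set lie below the lower quartile of all values (5.07) and may not exceed background.

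**Figure D3:**
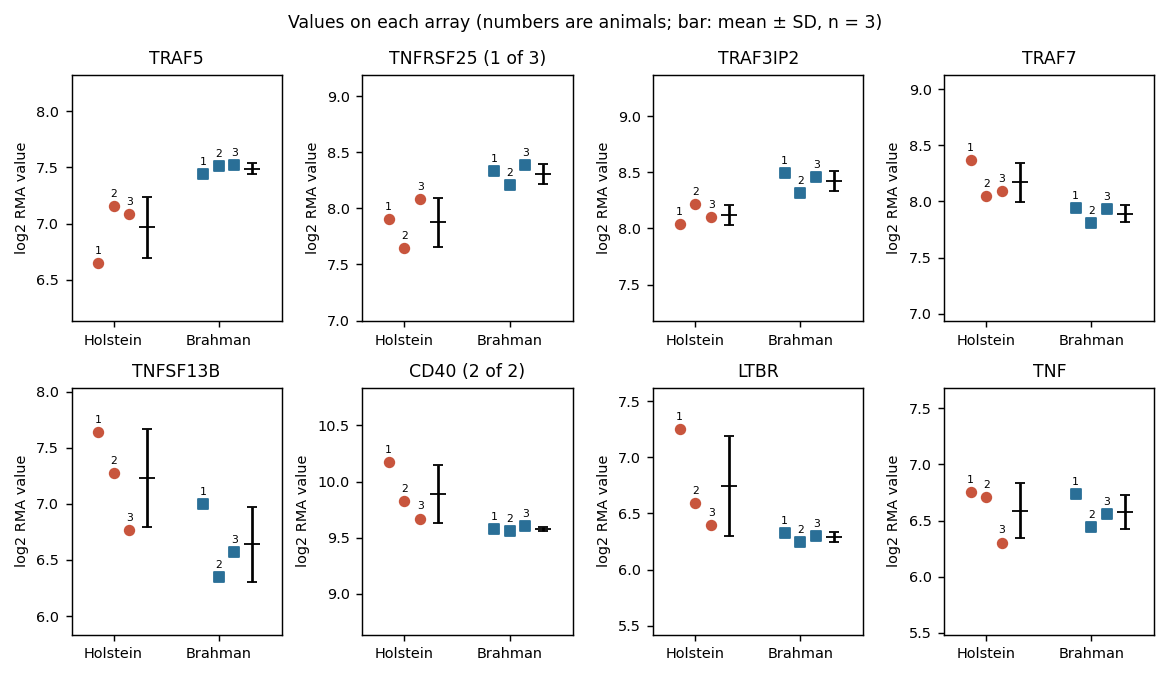
Points are the log2 RMA values (vertical axes, each spanning the same range) of the animals of each breed, numbered by animal, with the mean ± SD beside them, for 8 probe sets. Shown are the members at an unadjusted limma p under 0.05, the CD40 and LTBR probe sets without overlap, and TNF. The probe sets shown of TRAF5, TNFRSF25, TRAF3IP2, TRAF7, CD40 and LTBR separate the breeds, and TNFSF13B and TNF do not. The other CD40 and TNFRSF25 probe sets overlap. Holstein 1 is the highest point in TRAF7, TNFSF13B, CD40, LTBR and TNF.

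Among the TRAFs, TRAF5 and TRAF7 were the 2 with an unadjusted p under 0.05, in opposite directions. TRAF5, an adaptor of costimulatory receptors in lymphocytes, read 6.65, 7.16 and 7.09 in Holstein and 7.44, 7.51 and 7.52 in Brahman. The Brahman animals lie close together and above every Holstein animal, with a gap of 0.28, and Holstein 1 is the lowest of the 6. The means were 7.49 ± 0.05 and 6.97 ± 0.28 (SD, n = 3 each), a difference of 0.52 (SE 0.14), or 1.44-fold. Its limma adjusted p of 0.214 was the smallest of all members. Without Holstein 1 the difference was 0.37, and it stayed between 0.51 and 0.62 without any other array. The mean of the T cell markers, given above for TNFRSF25, separates the breeds in the same direction, and their part in TRAF5 was not tested.

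TRAF7, a member whose WD40 repeats replace the usual TRAF domain, read 8.37, 8.05 and 8.09 in Holstein and 7.94, 7.81 and 7.93 in Brahman. Every Brahman value lies below every Holstein value, with a gap of 0.11. The difference was -0.28 (SE 0.11, 1.21-fold, limma adjusted p = 0.347) and was -0.18 without Holstein 1.

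TRAF3 restrains the non-canonical NF-kappa-B pathway by marking the kinase MAP3K14 for degradation. Its probe sets differed by -0.19 and -0.16. The first was highest on Holstein 1, at 7.18 against 6.51 to 6.70 on the other arrays, and its difference was 0.01 without that animal. The second did not overlap between breeds, by a gap of 0.01, and differed by -0.13 without Holstein 1. MAP3K14 itself differed by 0.04 (SE 0.09).

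TRAF6, a ubiquitin ligase shared with the Toll-like and interleukin 1 receptors, differed by -0.22 (SE 0.11) and -0.04 (SE 0.11) in its 2 probe sets, which overlapped and were highest on Holstein 1. Without that animal they were -0.17 and 0.05. The brighter read 8.40, 8.33 and 8.19 in Holstein and 7.96, 8.07 and 8.24 in Brahman. TRAF1, which lacks the RING domain of the others, differed by 0.08, and TRAF4 by 0.12, with limma adjusted p of 0.751 and 0.708.

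The proteins named for interacting with TRAF3 have roles of their own. TRAF3IP2 (Act1) is the adaptor of the interleukin 17 receptors, and it read 8.04, 8.22 and 8.10 in Holstein and 8.49, 8.32 and 8.46 in Brahman. All Brahman animals lie above all Holstein animals, with a gap of 0.10. The difference was 0.30 (SE 0.10, 1.23-fold, limma adjusted p = 0.261), and it ran from 0.26 without Holstein 1 to 0.36 without Brahman 2.

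TRAF3IP3, a membrane-associated protein of lymphocytes, had 3 probe sets with differences of 0.23, 0.16 and 0.34, all with the higher mean in Brahman and all overlapping. The brightest read 9.38, 9.78 and 9.20 in Holstein and 9.60, 9.54 and 9.92 in Brahman, where the overlap comes from Holstein 2, which lies above 2 of the Brahman animals. Without Holstein 2 the differences were 0.40, 0.12 and 0.51. TRAF3IP1, a protein of ciliary transport, differed by -0.30 (SE 0.20), and Holstein 3 was its highest array at 6.55. The difference was -0.10 without Holstein 3 and -0.48 without Holstein 1.

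The adaptors TRADD and RIPK1, which link death domain receptors to NF-kappa-B and to cell death, were both highest on Holstein 1. TRADD read 9.02, 8.89 and 8.65 in Holstein and 8.68, 8.57 and 8.55 in Brahman, so only Brahman 1 and Holstein 3 overlap, and the difference was -0.25 (SE 0.12, limma adjusted p = 0.408), or -0.16 without Holstein 1. RIPK1 read 10.16, 9.75 and 9.61 in Holstein and 9.93, 9.66 and 9.71 in Brahman. Its difference was -0.08 (SE 0.16) and became 0.08 without Holstein 1.

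**Figure D4:**
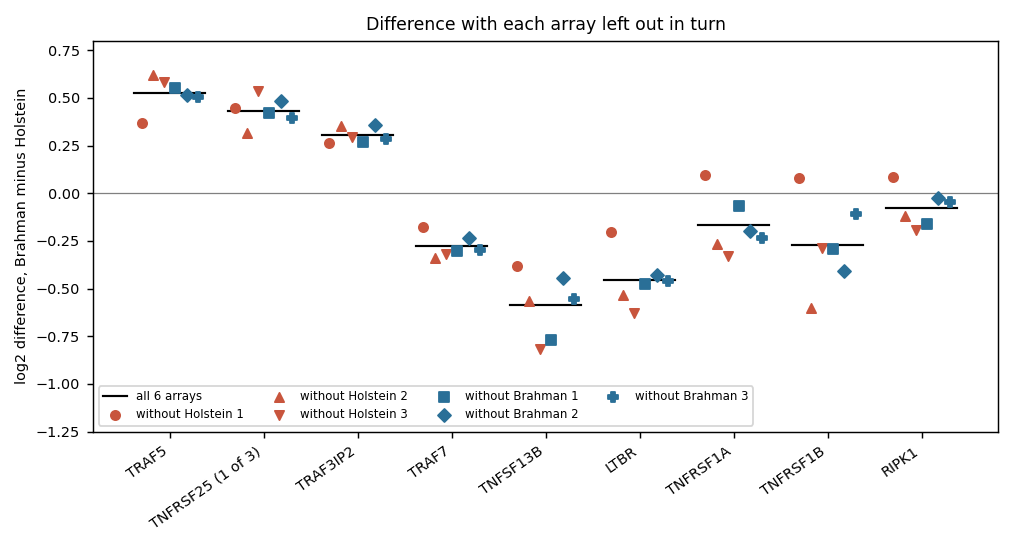
Symbols give the log2 difference, Brahman minus Holstein (vertical axis), with each of the 6 arrays left out in turn, and black lines the difference with all 6, for 9 probe sets. TRAF5, TNFRSF25 and TRAF3IP2 stay above 0, TRAF7, TNFSF13B and LTBR stay below it, and TNFRSF1A, TNFRSF1B and RIPK1 change sign without Holstein 1.

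Across the family, animals of the Holstein group differed more from each other than those of the Brahman group. The SD was larger in Holstein in 26 of 36 members (72.2%), beside 63.5% of all probe sets. The median SD of the members was 0.18 in Holstein and 0.10 in Brahman, beside 0.15 and 0.11 over all probe sets. Holstein 1 was above the mean of the other two Holstein animals in 27 of 36 members (75%), beside 53.6% of all probe sets, and by more than 0.5 in 5 members (13.9%, beside 2.90% of all). Those 5 were TNFRSF1B, TNFRSF1A, LTBR, TNFSF13B and a TRAF3 probe set. Holstein 1 was more than 0.5 below that mean in 2 members, TNFRSF21 and TRAF3IP1 (5.56%, beside 4.42% of all). Holstein 1 also had the highest monocyte marker mean (9.44) and the highest neutrophil marker mean (8.84) of the 6, although 2 of the 3 probe sets of the monocyte marker VCAN were lowest there, at 7.31 and 7.55. Of the neutrophil markers, FCGR3A was highest there (10.17). S100A12 and the brighter MPO probe set were highest on Brahman 2, and ELANE on Holstein 3. Holstein 1 had the lowest spike-in level of the Holstein arrays. The part of these in its values was not tested.

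**Figure D5:**
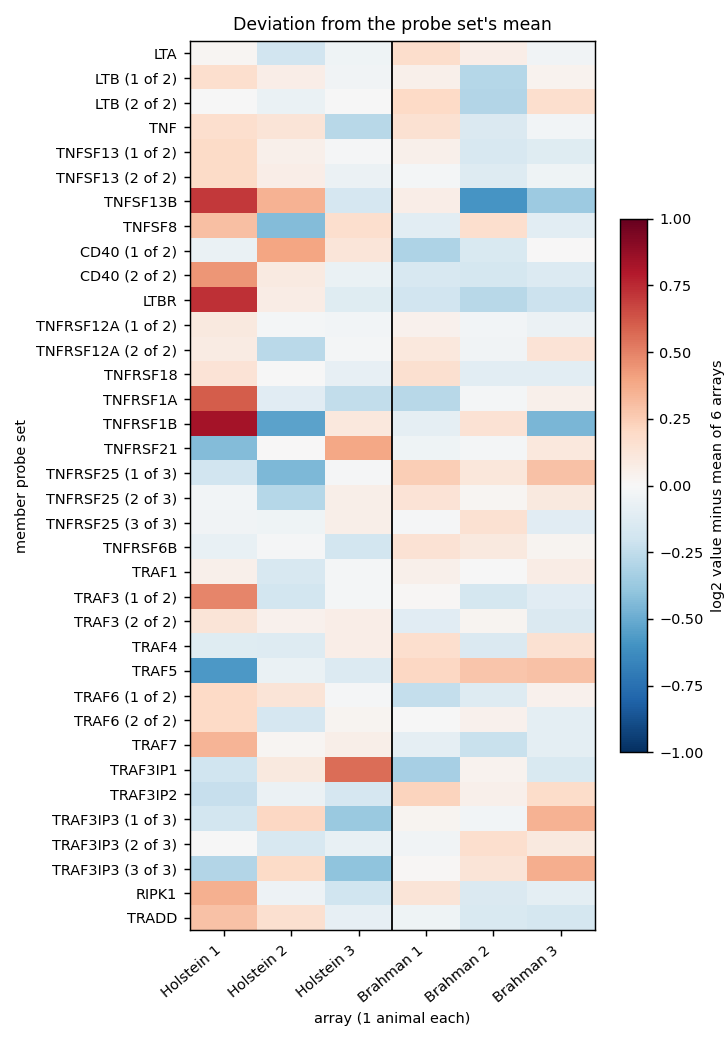
Colours give each array's log2 value minus the mean of the 6 arrays for that probe set, for the 36 members (rows, by role) on the 6 arrays (columns, Holstein left of the line). Holstein 1 is above the mean in most ligands and TRAFs, in the adaptors and in a part of the receptors, up to TNFRSF1B. It is below the mean in TRAF5, TNFRSF21, the TNFRSF25 probe sets and the brightest TRAF3IP3 probe set, among others.

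Of the 8 genes with several probe sets, 6 had a single sign in all of them: TNFSF13, CD40, TNFRSF25, TRAF3, TRAF6 and TRAF3IP3. LTB and TNFRSF12A had both signs, each with differences under 0.15. The tally depends on single arrays: TRAF3 had both signs without Holstein 1, TRAF6 without Holstein 1 or Brahman 3, and TNFRSF25 without Holstein 2 or Brahman 2.

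Genes around the family were described from a list of 47, of which 31 were measured with 49 probe sets. It holds superfamily members with other symbols and proteins that act downstream of the receptors. In limma 0 of the 49 passed over all probe sets (background 0.137%). At an unadjusted p under 0.05 there were 8 with the higher mean in Brahman (16.3%, background 7.12%) and 4 with the lower (8.16%, background 6.47%). Without Holstein 1 these became 7 (14.3%, background 6.32%) and 1 (2.04%, background 6.35%). The list was drawn up with earlier results of these data known, and the 8 include 3 probe sets of a single gene.

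CD40LG, the CD40 ligand of activated T cells, read 6.60, 6.58 and 6.88 in Holstein and 7.19, 7.48 and 7.60 in Brahman. The breeds do not overlap and the difference was 0.74 (SE 0.14, limma adjusted p = 0.119), beside -0.31 and -0.30 for its receptor. FAS, the death receptor that lymphocytes use to end responses, differed by -0.15 (SE 0.16). FASLG, its ligand, read 4.04 to 4.64 over both probe sets and all arrays, below the lower quartile of all values, and may not exceed background. CD27 was not analysed here.

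CFLAR, the caspase 8 homologue that blocks death receptor signalling, had the higher mean in Brahman in all 3 probe sets, by 0.28, 0.34 and 0.61 (SE 0.09, 0.12 and 0.14), each without overlap. BIRC3, a ubiquitin ligase bound to TRAFs, differed by 0.42 (SE 0.11) in a probe set that did not overlap and by 0.15 in another that did. TAB2, which couples TRAF6 to the kinase MAP3K7, differed by 0.34 (SE 0.10) and 0.16, and NGFR, a neurotrophin receptor of the superfamily, by 0.22 (SE 0.09), 0.25 and -0.05. The limma adjusted p of these probe sets ran upward from 0.173, that of the third CFLAR probe set.

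NFKBIA, NFKBIB and NFKBIE encode inhibitors of NF-kappa-B and had 7 probe sets. Of these, 3 had the lower mean in Brahman at an unadjusted limma p under 0.05, beside 6.47% of all probe sets. After adjustment 0 passed, beside 0.137% of all. The 7 were not a group set in advance, so their share is not set apart from that of the list. They come from the pathway list, drawn up with earlier results known, which held 4 such lower probe sets in all (8.16%). NFKBIA, which is also induced by NF-kappa-B, read 11.41, 10.56 and 10.39 in Holstein and 10.10, 10.05 and 10.25 in Brahman. The breeds do not overlap and Holstein 1 is far above the rest. The difference was -0.65 (SE 0.25, limma adjusted p = 0.327), and -0.34 without Holstein 1, when NFKBIA alone of the 7 kept an unadjusted p under 0.05. NFKBIB differed by -0.30 and -0.04 and the 4 NFKBIE probe sets by -0.03 to -0.36. All 6 were highest on Holstein 1, and without it they were -0.21 and 0.03 for NFKBIB and -0.20 to 0.15 for NFKBIE. RBCK1, a subunit of the linear ubiquitin ligase, gave opposite probe sets, at -0.43 (SE 0.16) and 0.30 (SE 0.09), each without overlap, so its direction depends on the probe set.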

How the data were processed

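White blood cell RNA of 3 Holstein and 3 Brahman cattle was measured on 1 array each. Per the submitters' processing notes, the authors made the deposited log2 values with RMA, of unstated version. RMA includes background correction, quantile normalisation over the arrays and 1 summary per probe set, so a global change in RNA would be removed. Of 24128 probe sets, 112 controls were left out. Brahman was compared with Holstein in limma 3.58.1 (R 4.3.3; lmFit, eBayes, breed as the only term, two-sided), with Benjamini-Hochberg adjustment over 24016 probe sets and a threshold of 0.05. The pipeline was tested on simulated data with planted differences and independent noise. The simulation held no spike-in level linked to breed and no deviating array, so it did not test their effect. Gene symbols came from the platform annotation, and all 36 member symbols equalled the RefSeq symbol of their Entrez entry (assembly ARS-UCD2.0). The members, lists, alternatives and naming rule were chosen with earlier results of these data known. Values on all arrays are given for members at an unadjusted p under 0.05, those without overlap and a difference of at least 0.5, TNF, the brightest of each role and the 3 with the widest spread within breeds. Array values of CD40, LTBR, TRADD, TNFSF8, CD40LG and NFKBIA, and MAP3K14, were added after their values were known. Pathway genes are named at an unadjusted p under 0.05, with CD40LG, FAS, FASLG and CD27 in any case. Alternatives were median centring, cyclic loess, intensity filters, a trended robust prior, array quality weights, a replicate block, a spike-in covariate, 1 probe set per gene and leaving out each array. No detection calls were used here, and the number of arrays limits the precision.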

Additional observations from a re-analysis of the deposited data

How the results depend on the processing

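Over 15 alternatives, 0 members were called at an adjusted p under 0.05. Of 195 recomputed differences of named member probe sets, 184 kept their direction and 11 reversed, in TNF, TNFRSF21, TNFRSF1A, TNFRSF1B and RIPK1. The intensity filters, the trended robust prior, the replicate block and 1 probe set per gene cannot change a difference. Their differences are counted among the 184, so that count overstates how stable the directions are. TNF became 0.0357 with array weights and TNFRSF21 -0.0322, and the latter became -0.0015 with arrays centred on a common median. With each array left out, TNF ran from -0.154 without Holstein 3 to 0.0696 without Holstein 1, and was 0.0490 without Holstein 2 and 0.0562 without Brahman 2. TNFRSF21 ran from -0.182 without Holstein 1 to 0.227 without Holstein 3, and was -0.0188 without Brahman 3. TNFRSF1A ran from -0.329 to 0.0960, TNFRSF1B from -0.604 to 0.0807 and RIPK1 from -0.193 to 0.0837, each highest without Holstein 1. The count of members with the lower mean in Brahman at an unadjusted p under 0.05, 2 in the main analysis, was 5 with median centring (13.9%, background 7.67%), 1 with a trended robust prior (2.78%, background 6.27%), 1 with array weights (2.78%, background 6.23%), 4 with the replicate number as a block (11.1%, background 6.91%) and 6 with the spike-ins in the fit (16.7%, background 4.42%). With each array left out, the count with the higher mean, 3, ran from 2 to 5 (5.56% to 13.9%, background 4.74% to 8.2%). The lower count then ran from 0 to 5 (0% to 13.9%, background 4.83% to 7.8%). With the spike-in covariate TRAF5 differed by 0.94, TRAF7 by -0.52, TNFSF13B by -0.89, TRAF3IP2 by 0.45, TNFRSF25 by 0.19, TNFRSF1B by -1.52, TNFRSF1A by -0.59 and the brightest TRAF3IP3 probe set by 0.72. Of the named probe sets TNFRSF1B moved the most, from -0.27, and its limma adjusted p was 0.358 (unadjusted 0.00105). The median difference was -0.15, and the pathway list had 8 lower probe sets (16.3%, background 4.42%), against 4. With 1 probe set per gene the pathway list had 3 higher probe sets (9.68%, background 7.28%), against 8 (16.3%, background 7.12%). With each array left out, the list had 6 to 9 higher (12.2% to 18.4%, background 4.74% to 8.2%). It had 0 to 9 lower (0% to 18.4%, background 4.83% to 7.8%). The median difference of members then ran from -0.09 to 0.06. The cause of these shifts was not tested. Spike-in levels did not overlap between the breeds, so the fit with the spike-in covariate separates breed from spike-in level poorly.

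The animals of the breeds share only a replicate number. The correlation of deviations from the breed means was 0.11, -0.04 and -0.07 for the same-numbered arrays 1, 2 and 3, so the numbers were not taken as pairs. The replicate block left 0 members called. It gave 3 higher (8.33%, background 7.17%) and 4 lower (11.1%, background 6.91%) at an unadjusted limma p under 0.05.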
